A study of Ovis aries with 10 samples.

Results

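The genes described here are 10 genes of steroid synthesis and conversion in brain: STAR, TSPO, CYP11A1, CYP19A1, SRD5A1, SRD5A3, HSD17B1, HSD17B4, HSD17B10 and HSD11B1. They were taken by symbol from a table of read counts for 33775 genes. Of the 10, 9 were listed under these symbols, and aromatase was listed as CYP19, a gene for which RefSeq gives CYP19A1 as a synonym. All 10 were thus found, and 8 had enough reads to be tested, CYP11A1 and CYP19A1 being the exceptions.

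The counts came from RNA sequencing of the mediobasal hypothalamus of adult Ile-de-France ewes, with 5 libraries of the luteal phase, when the corpus luteum secretes progesterone, and 5 of the follicular phase, when follicles grow and oestradiol climbs. RNA of 2 ewes of 1 phase, paired at random, went into each library in equal amounts, so that 10 ewes stood behind each phase and none behind both. The labels name no treatment or allele for either group. The series title gives the question as the effect of progesterone on this region, and the design holds 1 comparison, luteal against follicular.

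Neurosteroids are steroids that the nervous system makes itself, from cholesterol or from steroids arriving in the blood. Synthesis from cholesterol starts when STAR carries cholesterol into mitochondria, where CYP11A1 cuts its side chain to give pregnenolone, and HSD3B enzymes then make progesterone. Progesterone reaching the brain can be reduced by SRD5A1 and a further reductase to allopregnanolone, which strengthens GABA-A receptor currents. Aromatase, the product of CYP19A1, turns androgens into oestrogens, HSD17B enzymes interconvert weak and strong sex steroids, and HSD11B1 regenerates active glucocorticoid. These roles are known mainly from work on human and rodent enzymes.

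Library totals ran from 28571863 to 42358557 reads in luteal and from 20644992 to 43193449 reads in follicular libraries (exact permutation test of the means, two-sided, p = 0.111). The share of reads on 20 ribosomal protein genes ran from 1.71% to 2.34% in luteal and from 1.64% to 2.74% in follicular libraries (exact permutation test, p = 0.214), and follicular 1 and 3, which are the shallowest libraries, had the highest shares. All 6 arcuate nucleus genes searched and 4 of 5 ventromedial nucleus genes had enough reads to be tested. So had 18276 of the 33775 genes in the table and 6 of 7 choroid plexus genes, so these counts cannot check the tissue label. All 8 pituitary and pars tuberalis genes searched were tested too. Summed over that list, the level was 2469 to 4694 CPM in luteal and 3192 to 4830 CPM in follicular libraries (CPM, a gene's reads scaled to a common library total), and the phases overlapped. In bulk RNA, fewer cells of a type and less RNA per cell cannot be told apart.

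The first steps of synthesis from cholesterol were barely expressed in both phases. STAR had 16, 39, 36, 25 and 47 reads in luteal libraries 1 to 5, against 3, 16, 10, 10 and 59 reads in follicular libraries 1 to 5. It was detected in every library, with follicular 5 the highest and follicular 1 the lowest of all 10, so the phases overlapped across the whole luteal range. As a level STAR averaged 0.856 ± 0.34 CPM in luteal and 0.586 ± 0.43 CPM in follicular libraries (SD, n = 5 per phase). The log2 fold change of luteal over follicular was 0.46 (SE 0.47), with edgeR adjusted p = 0.601 over all genes tested. Its 95% interval, 0.680-fold to 2.80-fold, was the widest of the 8 genes, and counting error alone averaged 25.1% per library. Without follicular 5 the log2 fold change was 1.03 and without follicular 1 it was 0.25, neither passing the test (edgeR adjusted p = 0.119 and 0.819).

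CYP11A1 had 5, 16, 6, 12 and 31 reads in luteal libraries, against 11, 6, 5, 37 and 7 reads in follicular libraries. Luteal 5 and follicular 4 held the most reads of their phases, and the phases overlapped. The pooled level was 0.361 CPM in luteal libraries (exact 95% Poisson interval 0.281 to 0.456, counting error only) and 0.477 CPM in follicular libraries (0.369 to 0.607). Mean levels of 0.35 ± 0.24 CPM in luteal and 0.517 ± 0.51 CPM in follicular libraries (SD, n = 5 per phase) did not differ beyond their spread (two-sided exact permutation test, p = 0.627).

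CYP19A1, which encodes aromatase, had 0, 7, 4, 0 and 1 reads in luteal libraries, against 1, 0, 0, 1 and 7 reads in follicular libraries. It was thus at 0 in 2 libraries of each phase, and its whole count over 10 libraries was 21 reads. A count of 0 allows a level of up to 3 reads, which is 0.0706 to 0.0967 CPM in luteal and 0.0653 to 0.159 CPM in follicular libraries. The pooled levels were 0.0618 CPM in luteal libraries (exact 95% Poisson interval 0.032 to 0.108) and 0.0651 CPM in follicular libraries (0.0298 to 0.124). No difference between phases was detectable at this depth (exact permutation test, p = 0.794). NR5A1, the transcription factor SF-1 that marks ventromedial neurons and drives steroidogenic genes in gonad and adrenal, averaged 4.26 ± 1.17 CPM in luteal and 3.30 ± 1.27 CPM in follicular libraries (log2 fold change 0.35, SE 0.29, edgeR adjusted p = 0.528).

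**Figure D1:**
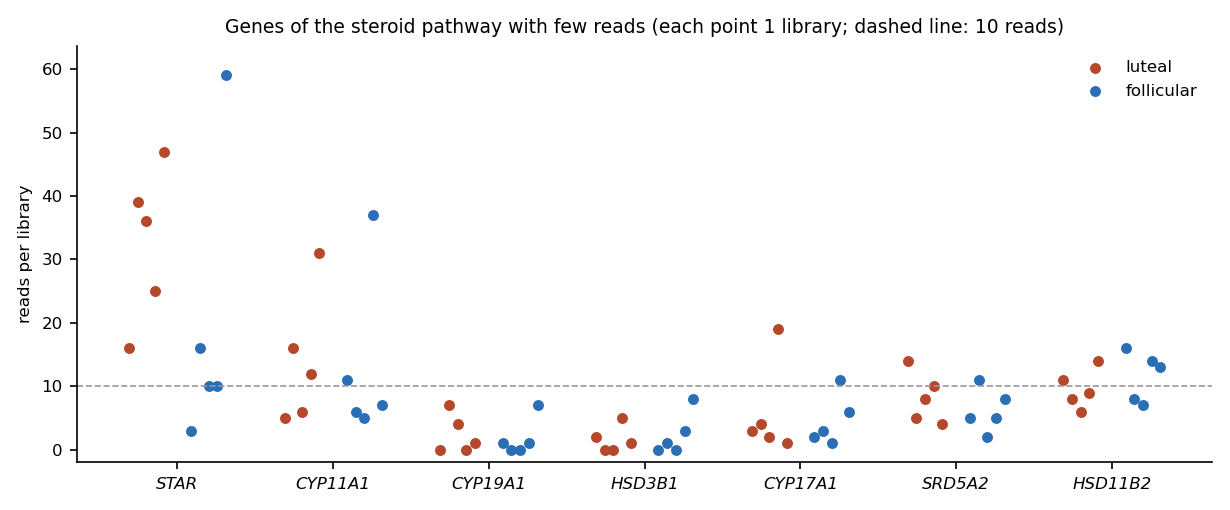
Reads per library (y axis) of STAR, CYP11A1, CYP19A1 and 4 other steroid enzyme genes (x axis), each point 1 library, luteal points left of follicular points. STAR reached 59 reads and CYP11A1 37 reads in single follicular libraries, and CYP19A1 and HSD3B1 stayed at or below 8 reads in every library.

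Several genes that join these steps in a gonad or adrenal were as sparse. HSD3B1, which turns pregnenolone into progesterone, had 0 to 5 reads in luteal and 0 to 8 reads in follicular libraries. CYP17A1, which leads to androgens, had 1 to 19 reads in luteal and 1 to 11 reads in follicular libraries. SRD5A2, the reductase of the reproductive tract, had 4 to 14 reads in luteal and 2 to 11 reads in follicular libraries. None of these 3 genes passed the filter on low counts, so edgeR did not test them. Exact permutation tests of their CPM gave p = 0.571 for HSD3B1, 0.73 for CYP17A1 and 0.873 for SRD5A2. CYP11B1, which makes the last step to cortisol in the adrenal, had more, with 117 to 192 reads in luteal and 66 to 134 reads in follicular libraries. Its level was 3.70 to 4.69 CPM in luteal and 2.31 to 4.92 CPM in follicular libraries, which overlapped (log2 fold change 0.22, SE 0.20, edgeR adjusted p = 0.575). HSD3B7, which acts in bile acid synthesis, averaged 28.4 ± 3.77 CPM in luteal and 33.3 ± 5.96 CPM in follicular libraries (log2 fold change -0.23, SE 0.15, edgeR adjusted p = 0.455). The electron carriers that serve mitochondrial steroid enzymes, which also serve other pathways, were well covered. FDX1, the ferredoxin that feeds CYP11A1, averaged 19.2 ± 2.40 CPM in luteal and 22.9 ± 3.79 CPM in follicular libraries. FDXR, its reductase, averaged 38.6 ± 4.70 CPM in luteal and 44.6 ± 8.71 CPM in follicular libraries (SD, n = 5 per phase; edgeR adjusted p = 0.432 and 0.481).

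TSPO, a cholesterol-binding protein of the outer mitochondrial membrane that is also used as a marker of microglial activation, had 953 to 2275 reads in luteal and 1158 to 1684 reads in follicular libraries. Its level was 51.0, 42.4, 30.7, 55.6 and 29.7 CPM in luteal libraries 1 to 5, against 68.6, 42.5, 87.6, 55.6 and 36.7 CPM in follicular libraries 1 to 5. Follicular 3 and 1 were the highest libraries and luteal 5 and 3 the lowest, while the others overlapped. The mean was 41.9 ± 11.7 CPM in luteal and 58.2 ± 20.6 CPM in follicular libraries (SD, n = 5 per phase), a log2 fold change of -0.47 (SE 0.25) that did not pass the test (edgeR unadjusted p = 0.0849, adjusted p = 0.432). For TSPO it was -0.60 without follicular 5 and -0.28 without follicular 3 (edgeR adjusted p = 0.0989 and 0.751). Beside it, 9 of 9 microglia and macrophage markers were tested, none at 0, with 4 averaging higher and 5 lower in luteal libraries. Their summed level was 409 to 480 CPM in luteal and 392.6 to 622.9 CPM in follicular libraries, and their part in the level of TSPO was not tested. DBI, the endogenous ligand of TSPO, averaged 103.5 ± 25.5 CPM in luteal and 141.1 ± 36.6 CPM in follicular libraries (log2 fold change -0.45, SE 0.21, edgeR adjusted p = 0.426).

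Neither 5-alpha reductase passed the test, and SRD5A1 varied least between libraries of the 8 tested genes. SRD5A1, which converts progesterone, testosterone and glucocorticoids to their reduced forms, had 25.2, 19.7, 19.3, 20.0 and 21.4 CPM in luteal libraries, against 21.6, 25.2, 22.0, 23.5 and 21.9 CPM in follicular libraries. Highest and lowest library differed by 1.31-fold, with a luteal and a follicular library at the top together. The log2 fold change was -0.11 (SE 0.11, edgeR adjusted p = 0.59), and the 95% interval of the fold, 0.786 to 1.09, bounds the phase difference that these libraries allow. SRD5A3, which reduces polyprenol on the way to dolichol for protein glycosylation besides its activity on steroids, had 8.08, 8.77, 9.83, 5.28 and 8.55 CPM in luteal libraries, against 8.50, 9.32, 8.92, 8.92 and 9.78 CPM in follicular libraries. Luteal 4 was the lowest library and the other 9 lay within 8.08 to 9.83 CPM. The log2 fold change was -0.17 (SE 0.17, edgeR adjusted p = 0.595; 95% interval of the fold 0.693 to 1.15), and without luteal 4 it was -0.05. Among the other enzymes of the dolichol pathway, DOLK and DPAGT1 had log2 fold changes of -0.27 (SE 0.12) and -0.22 (SE 0.09), with edgeR unadjusted p = 0.0387 and 0.0296 and adjusted p = 0.426 for both.

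Of the HSD17B genes among the 8 tested, HSD17B1 and HSD17B10 averaged lower in luteal libraries without passing the test. Outside the 8, HSD17B3, HSD17B8 and HSD17B14 also averaged lower, and HSD17B7, HSD17B11 and HSD17B12 averaged higher, none passing. HSD17B1, which reduces oestrone to oestradiol, had 3.68, 2.80, 3.06, 3.20 and 2.21 CPM in luteal libraries, against 4.51, 3.96, 6.74, 5.47 and 2.24 CPM in follicular libraries. Of the follicular libraries 4 lay above every luteal one, and follicular 5 lay near the lowest luteal library. The mean was 2.99 ± 0.54 CPM in luteal and 4.58 ± 1.68 CPM in follicular libraries (5 libraries per phase, SD; log2 fold change -0.61, SE 0.27), which did not pass over all genes (edgeR unadjusted p = 0.0442, adjusted p = 0.426). HSD17B10, a mitochondrial enzyme of isoleucine breakdown that is also a subunit of mitochondrial RNase P, had 102.5, 82.4, 69.3, 104.5 and 67.2 CPM in luteal libraries, against 128.1, 99.7, 137.1, 125.1 and 75.8 CPM in follicular libraries. Follicular 1, 3 and 4 were above all luteal libraries, and follicular 5 was among the lower luteal values. The mean was 85.2 ± 17.7 CPM in luteal and 113.2 ± 25.1 CPM in follicular libraries (5 libraries per phase, SD; log2 fold change -0.41, SE 0.18, edgeR unadjusted p = 0.0435, adjusted p = 0.426). Its partners in mitochondrial RNase P were PRORP, at 7.31 ± 1.32 CPM in luteal and 9.31 ± 1.46 CPM in follicular libraries (log2 fold change -0.35, SE 0.17), and TRMT10C, at 12.3 ± 2.42 CPM in luteal and 11.9 ± 2.05 CPM in follicular libraries (0.04, SE 0.17; edgeR adjusted p = 0.426 and 0.915). Without follicular 5 the log2 fold change was -0.79 for HSD17B1 and -0.52 for HSD17B10 (edgeR adjusted p = 0.0606 and 0.0624). Without follicular 3 it was -0.43 for HSD17B1 and -0.33 for HSD17B10 (edgeR adjusted p = 0.75 for both).

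HSD17B4, the peroxisomal multifunctional enzyme that breaks down branched and very long fatty acids and can inactivate oestradiol, averaged slightly higher in luteal libraries without passing the test. It had 79.3, 76.7, 89.3, 61.9 and 84.0 CPM in luteal libraries, against 68.1, 76.7, 66.1, 67.8 and 78.4 CPM in follicular libraries. Luteal libraries held both the highest value, luteal 3, and the lowest, luteal 4. The log2 fold change was 0.13 (SE 0.11, edgeR adjusted p = 0.53), with a 95% interval of the fold of 0.930 to 1.29. Of 8 other tested genes of peroxisomal beta-oxidation, 4 averaged higher and 4 lower in luteal libraries and 0 passed edgeR over all genes. The smallest p were those of EHHADH, the other bifunctional enzyme of this pathway (log2 fold change 0.54, SE 0.19, edgeR unadjusted p = 0.0161), and ACAA1, a thiolase (-0.52, SE 0.23, edgeR unadjusted p = 0.0436). With adjusted p = 0.426 each, neither passed.

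HSD11B1, which regenerates cortisol from cortisone in the endoplasmic reticulum, had 77.2, 78.0, 74.1, 87.8 and 67.5 CPM in luteal libraries, against 89.3, 69.9, 77.7, 76.1 and 51.1 CPM in follicular libraries. Follicular libraries held both extremes, follicular 1 and follicular 5, with all luteal libraries between them. The mean was 76.9 ± 7.34 CPM in luteal and 72.8 ± 14.0 CPM in follicular libraries (5 libraries per phase, SD; log2 fold change 0.08, SE 0.14, edgeR adjusted p = 0.763), and the sign turned without follicular 5 (-0.02). H6PD, which supplies the NADPH that HSD11B1 uses, averaged 52.8 ± 6.84 CPM in luteal and 55.2 ± 4.88 CPM in follicular libraries (log2 fold change -0.06, SE 0.11, edgeR adjusted p = 0.763). HSD11B2, which inactivates cortisol, had 6 to 14 reads in luteal and 7 to 16 reads in follicular libraries and did not pass the filter for edgeR. Its level averaged 0.244 ± 0.056 CPM in luteal and 0.458 ± 0.22 CPM in follicular libraries, and the phases overlapped. The exact permutation test gave p = 0.0317, without adjustment for the number of genes, and counting error alone averaged 31.9% per library.

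**Figure D2:**
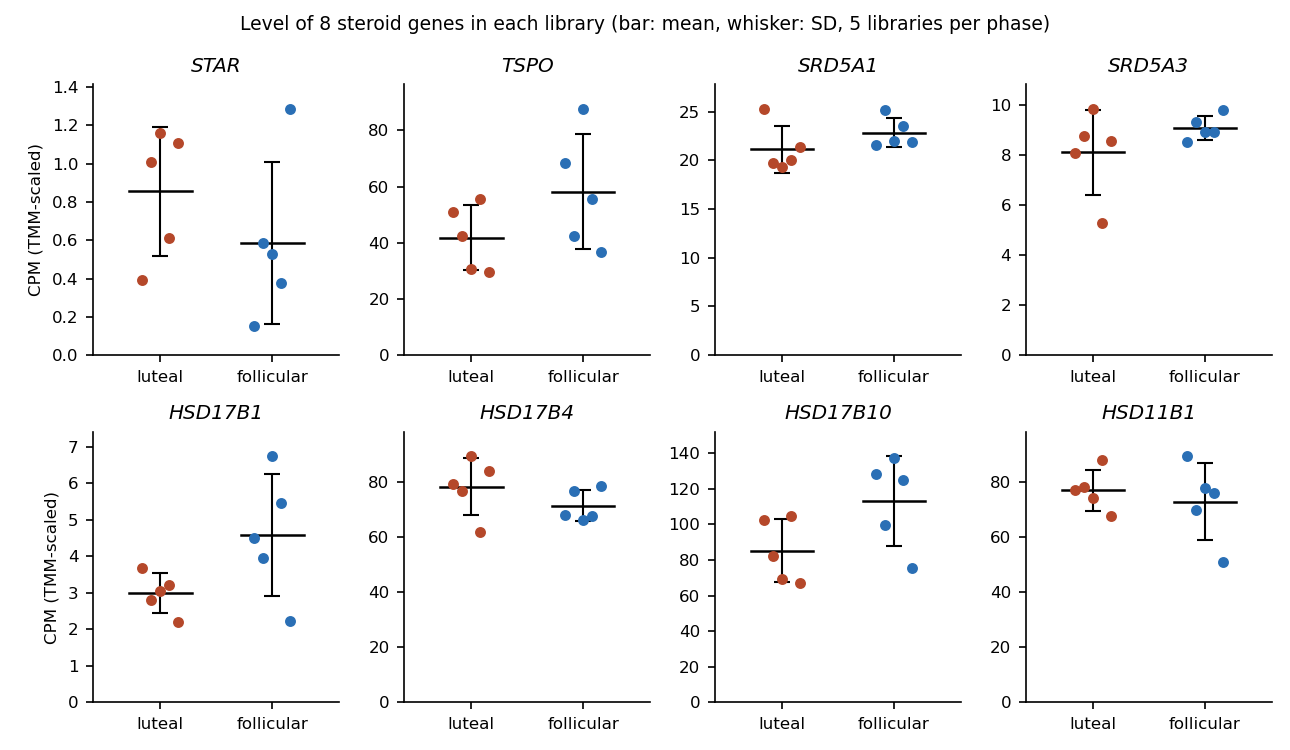
Level in TMM-scaled CPM (y axis, starting at 0) of the 8 tested genes in each luteal and follicular library; the horizontal bar is the mean and the whisker the SD over 5 libraries. The phases overlap in every panel, and HSD17B1 comes nearest to separation, with 4 follicular libraries above 3.68 CPM, the highest luteal value.

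Read together, 0 of the 8 tested genes passed edgeR over all genes at an adjusted p of 0.05, as did 0% of the 18276 genes tested. By DESeq2 0 of the 8 passed, against 0.192% of all genes, STAR having no adjusted p there, and by limma-voom 0 passed, against 0% of all genes. At an unadjusted edgeR p under 0.05 there were 2 of the 8, HSD17B1 and HSD17B10, both lower in luteal libraries, where 11.4% of all genes had such a p, 7.12% with a lower and 4.27% with a higher luteal level. Without single libraries this count was 4 (follicular 5 left out), 3 (luteal 4), 2 (luteal 1), 1 (follicular 2) or 0 (luteal 2, 3 or 5, or follicular 1, 3 or 4). The share of all genes at such a p in these fits was not set beside these counts, so they do not set the 8 genes apart. Of the 8, 3 averaged higher and 5 lower in luteal libraries, while 51.5% of all genes averaged higher. The members had a median log2 fold change of -0.14, beside 0.01 over all genes. The 2 phases overlapped in 8 of 8 genes, while 1.12% of all genes did not overlap. For 5 of the 8 genes, SRD5A1, SRD5A3, HSD17B4, HSD17B10 and HSD11B1, the unadjusted 95% interval lay inside a 2-fold difference in either direction. The share of all genes with such an interval was not computed, so this count does not set these genes apart.

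**Figure D3:**
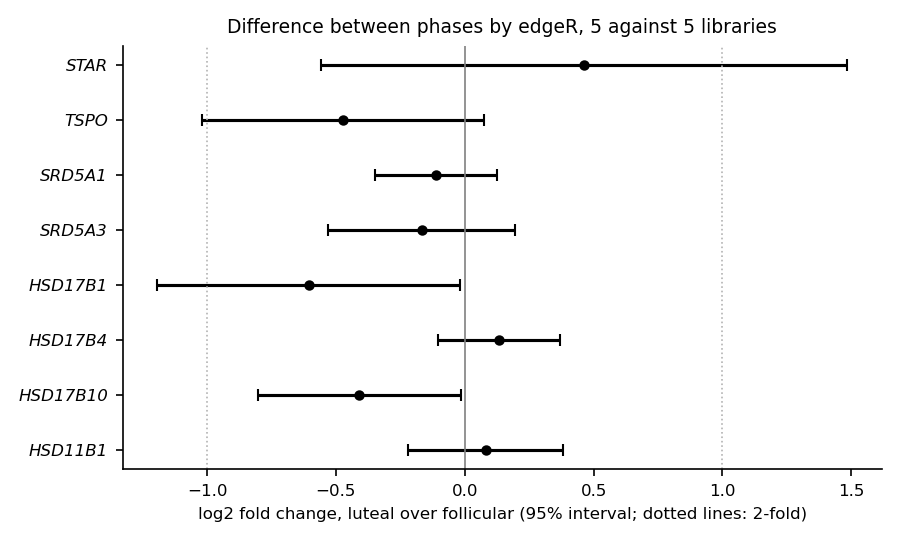
log2 fold change of luteal over follicular libraries (x axis) with its 95% interval for the 8 tested genes; dotted lines mark 2-fold differences. Intervals of HSD17B1 (-1.19 to -0.02) and HSD17B10 (-0.80 to -0.01) lie just below 0 before adjustment, and that of STAR reaches from -0.56 to 1.49.

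Most of the 8 genes followed a difference between libraries that ran through both phases. The level of TSPO rose with the ribosomal protein share of the library (Pearson r = 0.94, permutation p = 0.00017, adjusted p = 0.00072 over 8 genes; Spearman rho = 0.95, permutation p = 0.00017, adjusted p = 0.00068). The same relation held for HSD17B10 (r = 0.95, permutation p = 0.00018, adjusted p = 0.00072; rho = 0.95, permutation p = 0.00017, adjusted p = 0.00068). It held for HSD17B1 (r = 0.88, permutation p = 0.00086, adjusted p = 0.00229; rho = 0.87, permutation p = 0.00217, adjusted p = 0.00579) and for HSD11B1 (r = 0.72, permutation p = 0.00848, adjusted p = 0.0113; rho = 0.79, permutation p = 0.00881, adjusted p = 0.0141). Each of these 4 genes had its highest level in follicular 1 or follicular 3, the libraries with the highest shares.

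STAR ran against the share (r = -0.84, permutation p = 0.00253, adjusted p = 0.00506; rho = -0.84, permutation p = 0.00388, adjusted p = 0.00776), as did HSD17B4 (r = -0.81, permutation p = 0.00643, adjusted p = 0.0103; rho = -0.76, permutation p = 0.0147, adjusted p = 0.0196). For SRD5A1 (r = 0.15, permutation p = 0.667, adjusted p = 0.667; rho = 0.25, permutation p = 0.49, adjusted p = 0.49) and SRD5A3 (r = -0.29, permutation p = 0.49, adjusted p = 0.56; rho = -0.42, permutation p = 0.232, adjusted p = 0.265) no relation passed over the 10 libraries pooled. With follicular 1 and 3 left out, the libraries farthest from the median share, r was 0.90 for TSPO, 0.92 for HSD17B10, 0.84 for HSD17B1, 0.71 for HSD11B1, -0.86 for STAR, -0.77 for HSD17B4, 0.25 for SRD5A1 and -0.51 for SRD5A3. With each phase centred on its own mean, r was 0.93 for TSPO, 0.95 for HSD17B10, 0.86 for HSD17B1, 0.92 for HSD11B1, -0.80 for STAR, -0.77 for HSD17B4, -0.04 for SRD5A1 and -0.54 for SRD5A3. Within single phases of 5 libraries SRD5A3 did run against the share, with r = -0.81 in luteal and -0.94 in follicular libraries. For SRD5A1 these values were 0.21 and -0.28. An r of at least 0.6 in size was found for 6 of the 8 genes, or 75%, and for 58.9% of all genes tested, so such a relation was common in these libraries. Share and gene level come from the same reads of a library.

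**Figure D4:**
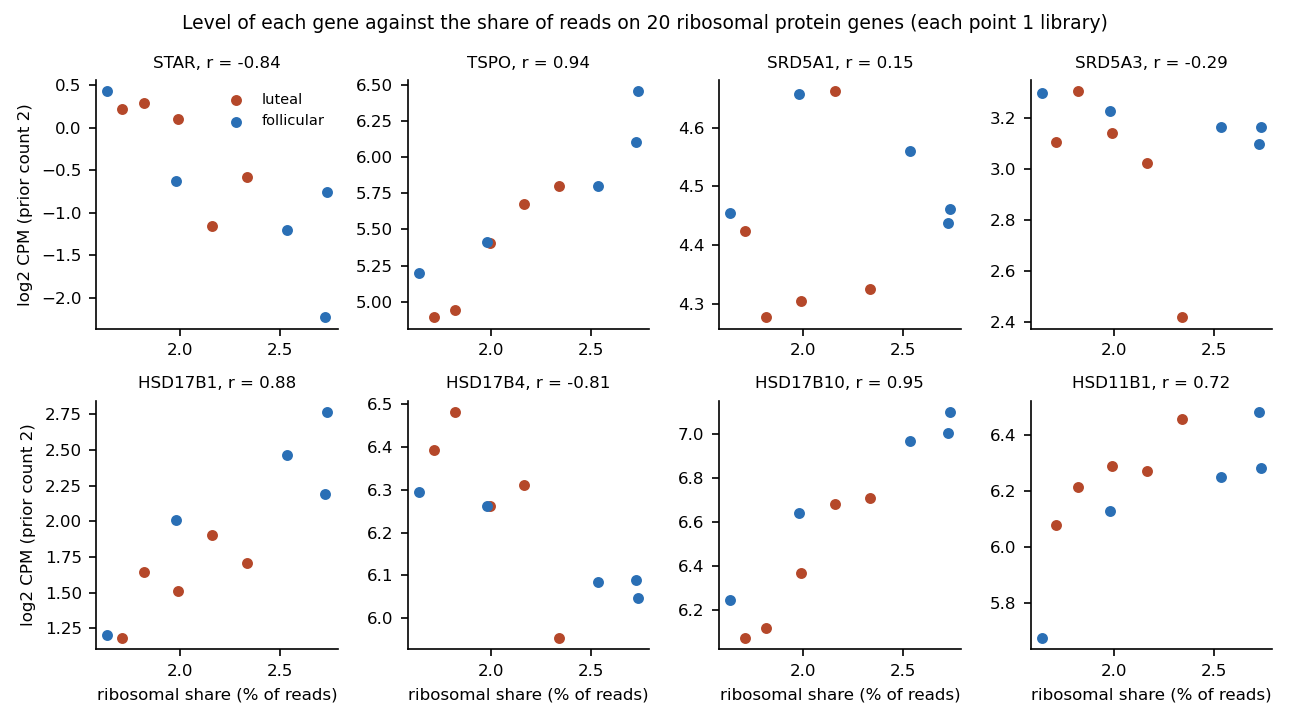
log2 CPM of each tested gene (y axis) against the percentage of the library's reads on 20 ribosomal protein genes (x axis), each point 1 library, with Pearson r over 10 libraries in each title. TSPO, HSD17B1, HSD17B10 and HSD11B1 climb with the share and STAR and HSD17B4 decline, in luteal and follicular libraries alike.

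With the ribosomal protein share as a covariate, a fit chosen with the values known, the log2 fold changes of the genes with the largest values moved toward 0. They were -0.10 (SE 0.11) for TSPO, -0.15 (SE 0.08) for HSD17B10, -0.23 (SE 0.19) for HSD17B1 and 0.14 (SE 0.33) for STAR. SRD5A1 stayed at -0.11 (SE 0.10) and HSD17B4 was at 0.03 (SE 0.08). SRD5A3 and HSD11B1 moved away from 0. For SRD5A3 the value was -0.28 (SE 0.16, edgeR unadjusted p = 0.098, adjusted p = 0.643), against -0.17 without the covariate. For HSD11B1 it was 0.27 (SE 0.08; edgeR unadjusted p = 0.00479, adjusted p = 0.393), which did not pass, against 0.08 (SE 0.14) without the covariate. The fit takes the same slope on the share in both phases. In that fit 0 of the 8 genes passed edgeR over all genes, and the count over all genes tested was 0 too. Of the 8, 1, HSD11B1, had an unadjusted p under 0.05. The share of all genes at such a p in that fit was not set beside this count, so it does not set HSD11B1 apart.

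The genes whose level was most like that of each member over the 10 libraries, by Pearson r of log2 CPM, reached an r of 0.92 or more for 7 of the 8. For HSD17B10 they were CCDC124 (r = 0.997), ATP5ME (0.997) and ENY2 (0.997), for TSPO TK2 (0.99), LOC121819578 (0.99) and HGSNAT (0.99), and for HSD17B1 HES6 (0.98), MRPL28 (0.98) and BABAM1 (0.98). For HSD17B4 they were CCDC90B (0.98), SLC1A3 (0.98) and CCDC88A (0.97), and for STAR LGR5 (0.98), ZC4H2 (0.97) and CELSR1 (0.97). SRD5A1 was matched less closely past its first gene, with LOC105610169 (0.94), LOC114111382 (0.87) and LOC121817951 (0.87), and SRD5A3 by AMIGO1 (0.93), ZNF772 (0.93) and NCR3LG1 (0.92). For SRD5A3 the rank correlations with these genes were lower (Spearman rho = 0.50, 0.62 and 0.78), and luteal 4 had the lowest SRD5A3 level, 5.28 CPM. For HSD11B1 they were LOC121819223 (0.96), UAP1L1 (0.95) and LMNTD2 (0.94). Among the members themselves HSD17B10 and TSPO ranked the 10 libraries in the same order (r = 0.96, rho = 1), and TSPO and HSD17B4 in nearly the opposite one (r = -0.84, rho = -0.83). These coefficients describe 10 libraries that share the relation to ribosomal protein share given above.

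Around the 10 genes, 73 further genes of the pathway were found in the table and 62 tested, of which 31 averaged higher and 31 lower in luteal libraries, with a median log2 fold change of -0.01. None passed edgeR over all genes, and 7 (11.3%) had an unadjusted p under 0.05, near the 11.4% of all genes. In cholesterol delivery 5 of 10 tested genes averaged higher and 5 lower (median log2 fold change 0.00), with STARD4, a cholesterol transfer protein of the cytosol, at 2.09 ± 0.84 CPM in luteal and 1.16 ± 0.62 CPM in follicular libraries (5 libraries per phase, SD; log2 fold change 0.82, SE 0.38, edgeR adjusted p = 0.426). Of 8 redox partners 3 averaged higher and 5 lower (median -0.10). FDX2, among those lower, averaged 61.4 ± 17.2 CPM in luteal and 89.0 ± 29.1 CPM in follicular libraries (log2 fold change -0.53, SE 0.25, edgeR adjusted p = 0.426). CYB5A, the cytochrome b5 that assists CYP17A1, was among those higher, at 5.20 ± 0.85 CPM in luteal and 2.67 ± 2.20 CPM in follicular libraries (log2 fold change 0.92, SE 0.44, edgeR adjusted p = 0.426). CYB5A had 18 reads in its lowest follicular library and 287 in its highest, against 154 to 254 reads in luteal libraries.

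Of 6 tested genes of other synthesis steps 4 averaged higher and 2 lower (median log2 fold change 0.12). Among them STS, which frees steroids from their sulphates, averaged 2.38 ± 0.72 CPM in luteal and 2.02 ± 0.39 CPM in follicular libraries, and HSD17B12, an enzyme of fatty acid elongation, 41.2 ± 10.7 CPM in luteal and 34.2 ± 14.3 CPM in follicular libraries. Of 6 tested breakdown genes 2 averaged higher and 4 lower (median -0.14), and HSD17B14 had the smallest p, at 1.78 ± 0.68 CPM in luteal and 2.95 ± 1.01 CPM in follicular libraries (log2 fold change -0.72, SE 0.30, edgeR unadjusted p = 0.0355, adjusted p = 0.426). HSD17B8, a mitochondrial enzyme of fatty acid synthesis, averaged 74.6 ± 12.8 CPM in luteal and 88.5 ± 21.2 CPM in follicular libraries, and HSD17B11, found on lipid droplets, 17.8 ± 1.28 CPM in luteal and 15.7 ± 1.33 CPM in follicular libraries (edgeR adjusted p = 0.488 and 0.442).

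Of 6 tested transcription factors of steroidogenic genes 4 averaged higher and 2 lower (median log2 fold change 0.13), and of 6 genes of mitochondrial RNase P and isoleucine breakdown 3 averaged higher and 3 lower (median -0.01). In the dolichol pathway 1 of 5 averaged higher and 4 lower (median -0.14), among them DPAGT1, the only tested gene of these lists in which the phases did not overlap. The receptors that these steroids reach were the list with the highest median, 0.30, with 5 of 7 averaging higher and 0 passing. The mineralocorticoid receptor NR3C2, with the smallest p of the list, averaged 28.1 ± 4.34 CPM in luteal and 20.3 ± 3.00 CPM in follicular libraries (log2 fold change 0.47, SE 0.14, edgeR unadjusted p = 0.00652, adjusted p = 0.426). PGR, the progesterone receptor, averaged 2.90 ± 0.94 CPM in luteal and 1.96 ± 0.28 CPM in follicular libraries (log2 fold change 0.56, SE 0.24, edgeR unadjusted p = 0.04, adjusted p = 0.426). The glucocorticoid receptor NR3C1 averaged 25.4 ± 3.87 CPM in luteal and 20.5 ± 4.22 CPM in follicular libraries (log2 fold change 0.31, SE 0.16, edgeR adjusted p = 0.43).

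**Figure D5:**
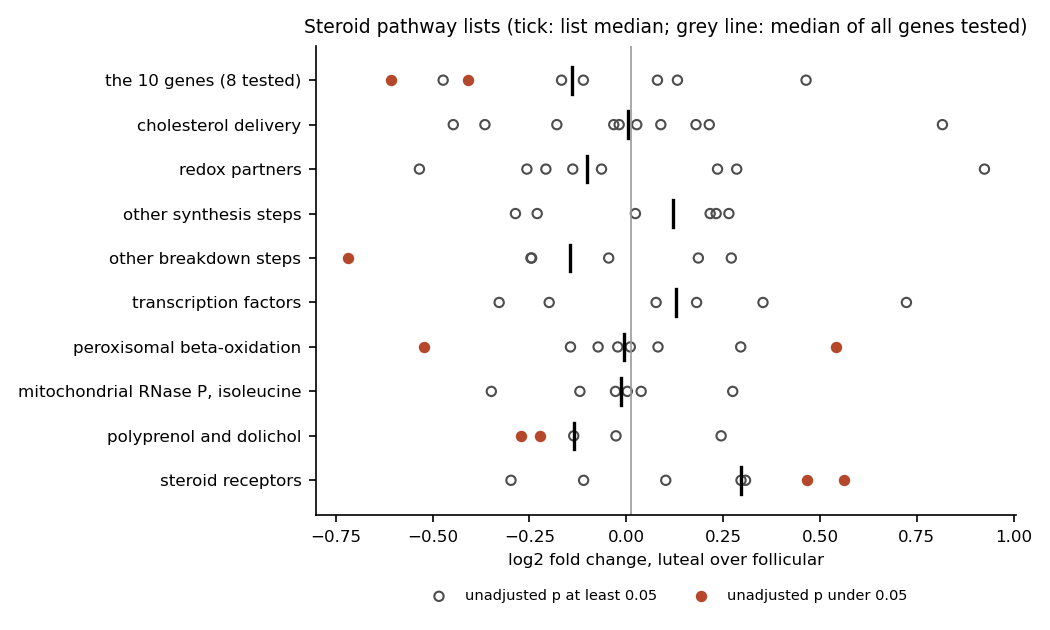
log2 fold change of luteal over follicular libraries (x axis) of each tested gene in the lists of the steroid pathway (rows), with filled points for an unadjusted edgeR p under 0.05, a black tick at each list's median and a grey line at the median of all genes tested. Each list lies on both sides of 0, and the medians run from -0.14 to 0.30.

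Levels of markers of other cell types were set beside these values. Of 13 marker lists 0 passed the exact permutation test between phases after adjustment over the lists. At the smallest p that these libraries can give, a single list has an adjusted p of 0.103, so no list could pass alone. The count of 0 therefore does not show that the phases had equal levels of these markers. The endothelium list was 0.23 higher in luteal libraries on the log2 scale (exact permutation test, p = 0.00794, adjusted p = 0.103), which is the smallest p that 5 against 5 libraries can give, with summed levels of 183.4 to 220.8 CPM in luteal and 162.3 to 228.5 CPM in follicular libraries. The choroid plexus list was 0.70 higher (exact permutation test, p = 0.0317, adjusted p = 0.206), with summed levels of 34.4 to 115.6 CPM in luteal and 20.6 to 57.3 CPM in follicular libraries. Astrocyte markers summed to 3292 to 5140 CPM in luteal and 4130 to 5302 CPM in follicular libraries, oligodendrocyte markers to 508.8 to 1281 CPM in luteal and 826.7 to 1400 CPM in follicular libraries, and neuronal markers to 699.1 to 993.9 CPM in luteal and 846.7 to 977.8 CPM in follicular libraries. The part of these cell types in the levels of the 10 genes was not tested.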

How the data were processed

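The authors deposited raw counts of reads per gene for 10 libraries. Per the labels' protocols, extraction used TriReagent and libraries a stranded TruSeq mRNA kit. According to the submitters' processing notes the tools were TopHat2 2.1.1 with Bowtie2 2.3.5.1, as well as featureCounts 2.0.0. The build, the strand setting and how shared reads were treated are not given in the sources used here. STAR and HSD11B1 overlap the spans of ASH2L and LAMB3 in assembly ARS-UI_Ramb_v3.0 (used for names only, 94.4% of identifiers matched), so reads of each pair may not be fully separated. ASH2L averaged 34.9 CPM in luteal and 28.7 CPM in follicular libraries. Transcript lengths were not used, so levels of different genes are not compared.

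The two-sided quasi-likelihood F-test of edgeR 4.0.16 (R 4.3.3) was fitted to the 10 libraries together, and the model held phase alone. The filter was filterByExpr with a minimum count of 10 and a minimum total of 15, 18276 genes were tested, and scaling was by TMM. Benjamini-Hochberg adjustment was over these genes, with a threshold of 0.05. Since mixes held different ewes, p-values reflect the spread from mix to mix. Log2 CPM used a prior count of 2. Exact permutation tests ran over 252 assignments (smallest p possible 0.00794), correlations over 100000 permutations. DESeq2 1.42.0 and limma 3.58.1 (voom) were alternatives. By chi-square none of 45 pairs of libraries agreed within sampling noise.

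The 10 genes, the lists and the tests were chosen with earlier results of these data known. Besides the 10 genes the text names a fixed set of pathway genes, up to 3 genes with the smallest p in a list and the 3 most alike genes; of 92 pathway names 73 were matched, and the others were not analysed here. The result of 1 gene is left out of the text.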

Additional observations from a re-analysis of the deposited data

Results flagged for a closer look

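Libraries lying far from the other 4 of their phase were looked for with Dixon's gap ratio, whose 95% limit for 5 samples is 0.71. Of 50 sets of 5 values, 1 passed, where chance gives about 1 in 20, or 2.5. It was the summed level of the arcuate nucleus markers, 1151 CPM in luteal 5, with 1620 CPM in the next luteal library and 1138 CPM in follicular 5. In the levels of the 10 steroid genes no library passed the limit in either phase.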

How the results depend on the processing

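The count of tested members passing over all genes was 0 under every alternative run: scaling by RLE or by the upper quartile, leaving the filter out or asking for 1 CPM in 5 libraries, the replicate block, DESeq2, limma-voom, each library left out, follicular 1 and 3 both left out, a threshold of 0.10, and the ribosomal protein share as a covariate. Over all genes DESeq2 called 35, and with single libraries left out edgeR called 0 to 1. The count of members at an unadjusted p under 0.05 was 2 as reported. It was 0 by limma-voom and 0 without follicular 1 and 3 together. It was 1 with the ribosomal protein share as a covariate and 0 to 4 with single libraries left out. The shares of all genes at such a p in these runs were not set beside these counts, and the cause was not tested. The median log2 fold change of the members ran from -0.17 to -0.07 with single libraries left out. All tested members kept their direction under all settings in which they were tested, apart from HSD11B1, which was -0.0233 without follicular 5 and ran to 0.17 over the single libraries left out. Taking the median over a list in place of the mean turned the difference of the microglia and macrophage list to -0.0368 and that of the leptomeninges list to 0.0432, neither passing. Replicate numbers were not taken as pairs, since mixes were drawn at random. Same-numbered libraries deviated together (correlation over 0.1) in 3 of 5 pairs, with correlations from -0.33 to 0.63. Of the 10 libraries, 4 were closest to their own number. The counts that chance would give were not computed, so these values do not decide whether same-numbered libraries are alike. With the replicate block 0 genes passed over all genes and 2 members had an unadjusted p under 0.05, as without it. Adjusted p were lower with the block. By edgeR they were 0.156 for HSD17B1 and 0.143 for HSD17B10, against 0.426 for both without it. The filter of 1 CPM removed STAR, and depth limits STAR, CYP11A1 and CYP19A1 most.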
